A study of Mus musculus with 16 samples.

Results

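The exonic tags of long non-coding RNAs (lncRNAs) other than the few that dominate this class were examined in the RNA–chromatin contacts of mouse embryonic stem cells (mESCs). A contact joins an RNA tag to the DNA tag it was ligated to, and the members were the significant pairs whose RNA tag was annotated as a long non-coding RNA and as exonic, with the tags of *Kcnq1ot1*, *Malat1*, *Neat1*, *Meg3*, *Rian* and *Mirg* left out. They came to 5789 of 29559 exonic lncRNA tags and of 2720242 significant pairs in all, and they carried 669 RNA names. Both libraries were made from a single line, PGK12.1 mESCs, grown with LIF and crosslinked in 1% formaldehyde. H3K27me3-RADIP keeps the RNA–DNA chimeras that an antibody against the histone mark H3K27me3 pulls down, and Input is 10% of the same lysate taken forward without antibody. By the labels there were 8 libraries in a condition, and the study describes 4 biological replicates. Each condition is given as 1 merged table, so no spread between replicates could be had. Every interval and test below covers counting error and compares the 2 merged libraries, not the conditions. These intervals and tests treat each tag as independent, though tags of 1 RNA are not. Intervals may therefore be too narrow and p-values too small. The Input table held 1305107 pairs with 2833 members, and the H3K27me3-RADIP table held 1415135 pairs with 2956 members. The comparison addresses which chromatin-associated RNAs lie on H3K27me3-marked chromatin.

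LncRNAs are transcripts that are not translated, and many stay on chromatin near the gene that makes them, since the nascent chain is still held by the polymerase. An intronic tag comes from RNA that has not been spliced or from an excised intron, while an exonic tag can come from the nascent transcript or from the spliced RNA. H3K27me3 is deposited by Polycomb repressive complex 2 and lies over silenced genes, among them developmental regulators and, in female cells, the inactive X chromosome. Several lncRNAs, *Xist* above all, are known for their part in setting up such silencing.

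The RNA positions that gave the most contacts of single RNAs are shown first, because they are what was sequenced. Each run is 24 bases of the transcribed strand on mm10 (the GRCm38 reference), written as DNA from 5′ to 3′. The capital marks the base whose position was used for distances.

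*Snhg16*, chr11:116671733-116671756, plus strand: gaaaggcctaaGctttgggtgatg
*Tsix*, chrX:103447861-103447884, plus strand: gagatatccacGcatcttgagtcc
*Pvt1*, chr15:62244826-62244849, plus strand: gatgtcttcagCaatggtattaac
*Lncenc1*, chr13:97482978-97483001, plus strand: atggtggccaaGcatgaggtgctc
*Gm45205*, chr7:127993483-127993506, plus strand: gacaagtttgtCagtgagatctat
*Firre*, chrX:50627209-50627232, minus strand: cttcttctaaccAtcacgaagaca
*Gm43860*, chr5:35551517-35551540, minus strand: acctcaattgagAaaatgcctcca

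The *Snhg16* position, in the first of the 4 exon blocks (merged exons) of its gene, gave 8 tags in Input and 10 in H3K27me3-RADIP, which met DNA in 6 different 25-kb bins. The *Tsix* position, in exon block 2 of 3, gave 6 and 5 tags over 7 bins. The *Pvt1* position lies in exon block 14 of 21 and gave 2 tags in Input against 7 in H3K27me3-RADIP, again over 7 bins. The most used *Firre* position gave 1 and 2 tags. The *Lncenc1* position gave 1 and 6 tags and that of *Gm45205* gave 5 and 0. Apart from *Gm43860*, each of these 24-base runs occurs once in the genome. The *Gm43860* run, with 2 tags in H3K27me3-RADIP, occurs at 151 places, so these bases alone do not place it. Over all members, 3.49% of Input tags and 2.77% of H3K27me3-RADIP tags had a 24-base sequence found at more than 1 place. The bases GGGG, searched on the transcribed strand only, were in 5.92% of the distinct exonic RNA-tag positions of Input (95% Wilson interval 5.05 to 6.93) and in 6.24% of those of H3K27me3-RADIP (5.36 to 7.27). For intronic lncRNA positions the shares were 6.07% and 6.50%.

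The tags were spread over many RNAs. The 10 RNAs with the most tags held 27.8% of the members in Input and 28.2% in H3K27me3-RADIP, and a single tag was all that 131 of the 401 Input RNAs and 171 of the 490 H3K27me3-RADIP RNAs had. Over both libraries the list was led by *Tsix*, *Pvt1*, *Lncenc1* and the small nucleolar RNA (snoRNA) hosts *Snhg16* and *Snhg17*. Gene models with little known about them, such as *B830012L14Rik* and *Gm43668*, were also near the top.

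**Figure D1:**
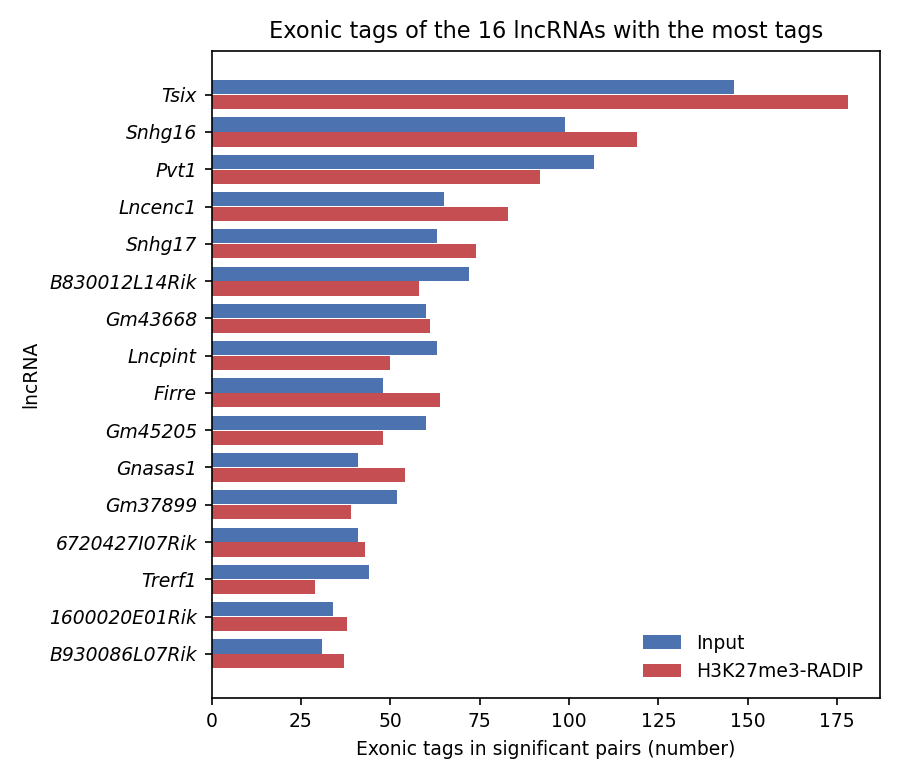
Number of exonic tags in significant pairs (horizontal axis) for the 16 lncRNAs with the most tags over both libraries (vertical axis), with Input in blue and H3K27me3-RADIP in red. *Tsix* led in both libraries with 146 and 178 tags, and *B830012L14Rik*, *Gm45205* and *Gm37899* were among the RNAs with fewer tags in H3K27me3-RADIP.

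*Tsix*, the transcript antisense to *Xist* that represses it on the active X, had the most tags in both libraries, 146 in Input and 178 in H3K27me3-RADIP. Its log2 fold change per pair in the table was 0.17 (95% exact interval -0.15 to 0.49), so the libraries did not differ beyond counting error. Exon block 2 held 65.8% of its tags in Input and 69.1% in H3K27me3-RADIP. Of the 324 tags, 220 lie inside *Gm26992*, a gene model on the same strand that GENCODE M21 calls protein-coding, and no pair in either table was given that name. *Firre*, an X-linked lncRNA known for contacts with distant chromosomal regions, gave 48 and 64 tags (log2 fold 0.30, -0.26 to 0.87). The other members from the X-inactivation list were rare, with 8 and 6 tags for *Xist*, 6 and 8 for *Ftx* and 0 and 3 for *Jpx*. As a group, these 5 RNAs had 208 and 259 tags, a log2 fold of 0.20 (-0.07 to 0.47).

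SnoRNA hosts are spliced RNAs whose introns are cut into small nucleolar RNAs. The 11 such names gave 271 Input tags and 301 H3K27me3-RADIP tags, with a log2 fold of 0.03 (-0.21 to 0.28). *Snhg16* led with 99 and 119 tags, and *Snhg17* followed with 63 and 74. *Snhg1* gave 21 and 32 tags, *Gas5*, a host tied to growth arrest, 28 and 17, and *Snhg15* 25 and 17. At a q-value limit of 0.01 *Snhg15* turned, with 12 and 17 tags (log2 0.39 against -0.67). *Snhg4* had 24 tags in Input and 12 in H3K27me3-RADIP, the only host with at least 20 tags to pass 2-fold. All 36 *Snhg4* tags lie inside *Gm28285*, a gene model on the same strand called protein-coding in M21. *Dancr* had 14 tags and *Snhg12* had 9, all in H3K27me3-RADIP, while the 4 tags of *Snhg14* were all in Input.

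*Pvt1*, the lncRNA gene next to *Myc*, gave 107 tags in Input and 92 in H3K27me3-RADIP (log2 fold -0.33, -0.75 to 0.08). *Lncpint*, a p53-induced lncRNA, gave 63 and 50 (-0.45, -1.02 to 0.11). *Lncenc1*, an lncRNA expressed in naive mESCs, gave 65 and 83 (0.24, -0.25 to 0.73). All of these intervals held 0. The Platr transcripts, which were named for their link to pluripotency, were few, with 11 and 4 tags for *Platr4*, 7 and 4 for *Platr22*, 8 and 0 for *Platr10*, 5 and 1 for *Platr28*, 2 and 1 for *Platr21*, and 0 and 2 for *Platr20*. With *Lncenc1*, this pluripotency list of 7 RNAs had 98 Input tags against 95 in H3K27me3-RADIP (log2 fold -0.16, -0.58 to 0.26). *Gnasas1*, the imprinted antisense transcript of the *Gnas* locus, had 41 and 54 tags (0.28, -0.33 to 0.90), and at a q-value limit of 0.01 it had 39 and 35 (log2 -0.27). *Airn*, which silences imprinted neighbours of *Igf2r*, gave only 1 and 2 exonic tags beside 67 and 171 intronic tags.

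Several leading names are gene models with little known about them. *B830012L14Rik*, which lies between *Rian* and *Mirg* in the imprinted *Dlk1–Dio3* domain, had 72 and 58 tags, and 56 and 37 of these fell outside the exons that M21 gives it. TEC models are loci that await experimental support, and 3 of them were among the 12 RNAs with the most tags, namely *Gm43668* near *Sox2ot* (60 and 61), *Gm45205* (60 and 48) and *Gm37899*, also in the *Dlk1–Dio3* domain (52 and 39). TEC models held 19.9% of the members in Input and 17.9% in H3K27me3-RADIP, lincRNAs 31.1% and 31.1%, and antisense RNAs 25.4% and 29.3%. The antisense share was 3.88 points higher in H3K27me3-RADIP (95% interval 1.59 to 6.17, chi-square p = 0.000924), and the other classes named here had intervals that reached 0. Of the TEC tags, 52.2% in Input and 54.0% in H3K27me3-RADIP lay inside a protein-coding gene on the same strand, where RNA of the 2 genes cannot be told apart.

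As a class, these tags made up 0.217% of the Input pairs and 0.209% of the H3K27me3-RADIP pairs. The difference of -0.00819 percentage points had a 95% interval from -0.0192 to 0.00277 (chi-square p = 0.143), which includes 0. It was -0.0147 points over RNAs found in both libraries (chi-square p = 0.00262) and -0.0174 points over RNA–bin combinations found in both (chi-square p = 5.53e-05). As a share of exonic lncRNA tags they were 25.6% in Input and 15.97% in H3K27me3-RADIP, as the exonic tags of the 6 RNAs left out numbered 8216 in Input and 15554 in H3K27me3-RADIP. Intronic tags of all lncRNAs beyond those 6, RNAs with no exonic tag included, rose from 2.09% to 2.23% of all pairs (difference 0.145 points, 0.110 to 0.179).

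The exonic tags met DNA close to their origin. The median *cis* distance, between tag centres on the same chromosome, was 7.01 kb in Input (95% interval 6.33 to 7.76) and 7.51 kb in H3K27me3-RADIP (6.61 to 8.37), and the intervals overlapped. The mean was 64.7 kb in Input against 133 kb, and without *Pvt1*, which had 7 tags beyond 5 Mb in H3K27me3-RADIP, it was 42.1 against 62.2 kb. Tags within 25 kb made up 73.5% and 70.7% (difference -2.75 points, -5.06 to -0.442, chi-square p = 0.0196), and tags beyond 100 kb made up 11.6% and 14.3% (difference 2.66 points, 0.929 to 4.39, p = 0.00262). Beyond 1 Mb there were 35 tags in Input and 57 in H3K27me3-RADIP. When only RNA–bin combinations common to the 2 tables were counted, the difference beyond 100 kb was 1.06 points (chi-square p = 0.312) and that within 25 kb was -1.11 points (chi-square p = 0.456). Without *Tsix* the difference within 25 kb was -2.27 points (chi-square p = 0.0533).

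**Figure D2:**
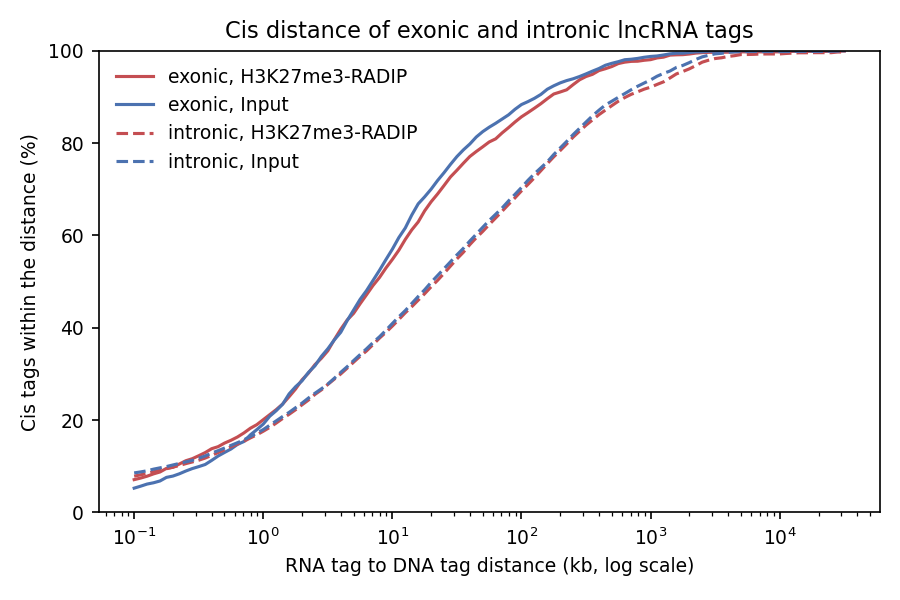
Share of *cis* tags (vertical axis, %) whose DNA tag lay within a given distance (horizontal axis, kb, log scale), for exonic tags (solid) and intronic tags (dashed) of lncRNAs beyond the 6 left out in Input (blue) and H3K27me3-RADIP (red). The exonic curves reach 50% near 7 kb and the intronic curves near 20 kb, and the exonic curve of H3K27me3-RADIP runs below that of Input from 10 to 1000 kb.

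Intronic lncRNA tags reached further. Their medians were 20.3 and 21.9 kb, and 29.6% and 30.3% of them lay beyond 100 kb. Beyond 1 Mb lay 6.32% of them in Input and 7.88% in H3K27me3-RADIP (difference 1.56 points, 1.15 to 1.98). From 100 kb to 1 Mb the intronic shares were 23.3% and 22.5% (difference -0.831 points, -1.51 to -0.150). The exonic minus the intronic share beyond 100 kb was -17.96 points in Input (95% interval -19.2 to -16.6) and -16.03 points in H3K27me3-RADIP (-17.3 to -14.6), so exonic tags lay nearer in each library. Without *Pvt1* on either side these differences were -10.1 points (-11.2 to -8.80) and -8.25 points (-9.53 to -6.89). The odds of lying beyond 100 kb were 1.27 times higher in H3K27me3-RADIP than in Input for exonic tags and 1.04 times higher for intronic tags. The ratio of these odds ratios was 1.22 (1.04 to 1.43, Wald chi-square p = 0.0126). *Pvt1* alone supplied 5513 and 5722 of the intronic tags, whose totals were 27225 and 31568. Without *Tsix* on the exonic side and *Pvt1* on the intronic side, the Wald chi-square p was 0.0492.

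A small number of RNAs made up the far tags. Beyond 100 kb there were 330 tags of 31 RNAs in Input and 423 tags of 32 RNAs in H3K27me3-RADIP, and 22 RNAs had such tags in both. The 6 RNAs with the most far tags held 70.3% and 64.8% of them. Of the 41 RNAs with a far tag in either library, 22 had more in H3K27me3-RADIP, adding 145 tags, and 15 had fewer, taking away 52. The gains were largest for *Firre* (20 to 42), *Snhg16* (11 to 32) and *Lncenc1* (29 to 47), and the losses for *Pvt1* (71 to 55) and *Lncpint* (30 to 21). For 42 RNAs each library held at least 10 *cis* tags, and the H3K27me3-RADIP median was the longer for 25 of them and the shorter for 17.

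**Figure D3:**
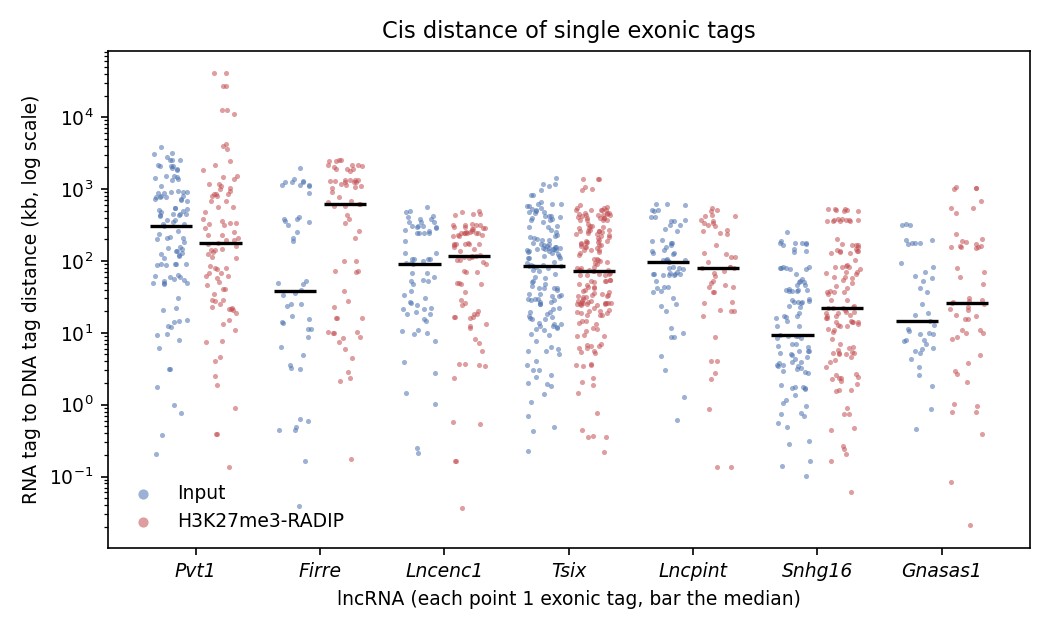
*Cis* distance of every exonic tag (vertical axis, kb, log scale) for 7 lncRNAs (horizontal axis) in Input (blue) and H3K27me3-RADIP (red), each point a tag and each black bar the median. The median of *Firre* lay at 37.8 kb in Input and at 621 kb in H3K27me3-RADIP, while the medians of *Tsix*, *Lncenc1* and *Lncpint* lay close together in the 2 libraries.

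The intronic tags of the same RNAs, which are no members, were set beside the exonic tags for the 7 RNAs in the plot of single distances, a choice made with the values in view. The median distance of the exonic tags of *Firre* was 37.8 kb in Input against 621 kb after H3K27me3-RADIP, and the tags beyond 1 Mb numbered 10 of 48 and 27 of 64. Its tags met 17 Input bins and 33 H3K27me3-RADIP bins, and 10 were shared. The intronic tags of *Firre* had medians of 165 and 593 kb. Beyond 1 Mb lay 30.7% of 485 intronic Input tags and 41.4% of 553 intronic H3K27me3-RADIP tags (difference 10.7 points, 4.83 to 16.4, Benjamini–Hochberg adjusted chi-square p = 0.00125 over 11 comparisons). The far bins included a bin 1256 kb from the gene with the start of *Enox2*, which had 0 exonic tags in Input and 4 in H3K27me3-RADIP. Other tags of *Firre* there numbered 0 and 8. The adjoining bin, 1231 kb away, had 4 and 2 exonic tags and 12 and 9 others. No bin outside the gene held more than 4 of its exonic tags in either library.

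*Pvt1* had the longest single contact in each library, though its H3K27me3-RADIP median was shorter than the 621 kb of *Firre*. The Input median was 303 kb and the H3K27me3-RADIP median 177 kb, and its tags met 58 and 49 bins, 25 of them shared. The longest contact was at 3839 kb in Input. In H3K27me3-RADIP 7 *Pvt1* tags, at 4 different positions, lay beyond 5 Mb, up to 40731 kb, and no other RNA had a *cis* tag beyond 5 Mb in either library. The bin with the start of *Myc* held 2 exonic *Pvt1* tags in each library, beside 138 other *Pvt1* tags in Input and 134 in H3K27me3-RADIP. No bin outside the gene held more than 3 exonic *Pvt1* tags. Beyond 1 Mb lay 27.6% of its intronic tags in Input and 35.7% in H3K27me3-RADIP (difference 8.13 points, 6.42 to 9.84), and the exonic shares were 19.6% of 107 and 21.7% of 92.

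*Tsix*, *Lncenc1* and *Lncpint* had medians between 73.2 and 116 kb. For *Tsix* the medians were 84.9 and 73.2 kb, with 39 and 36 bins, 30 shared, and 45.9% and 43.3% of the exonic tags lay beyond 100 kb. Beyond 100 kb lay 54.9% of 822 intronic *Tsix* tags in Input and 62.1% of 1141 after H3K27me3-RADIP (difference 7.18 points, 2.77 to 11.6, adjusted chi-square p = 0.00258), and beyond 1 Mb 5.11% and 8.85% (adjusted chi-square p = 0.00259). For *Lncenc1* it was 89.7 and 116 kb, with 23 bins in each, 17 shared. The bin with the start of *Enc1*, a gene 185 kb away, held 2 exonic *Lncenc1* tags in Input and 7 in H3K27me3-RADIP. Other *Lncenc1* tags in that bin numbered 16 and 18. For *Lncpint* it was 95.8 and 79.9 kb, and the bin with the start of *Klf14* held 0 and 4 exonic tags, with 0 and 11 others. Beyond 100 kb lay 43.8% and 43.0% of the *Lncpint* intronic tags (difference -0.857 points, -6.88 to 5.16) and 48.0% and 51.2% of those of *Lncenc1* (difference 3.18 points, -3.74 to 10.1).

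*Snhg16* differed from the other snoRNA hosts in its far contacts. Its medians were 9.17 and 22.1 kb, and 11 of 99 and 32 of 119 tags lay beyond 100 kb. Of the intronic tags of *Snhg16*, 16.7% of 222 and 18.8% of 261 lay beyond 100 kb (difference 2.11 points, -4.83 to 8.85). The other hosts with at least 20 tags stayed within 100 kb in both libraries. *Gnasas1* also reached further in H3K27me3-RADIP, with a median of 14.7 kb in Input against 26.3 kb and 0 against 4 tags beyond 1 Mb. Of its intronic tags, 26.3% of 114 lay beyond 100 kb in Input, as did 47.2% of 161 in H3K27me3-RADIP (difference 20.9 points, 9.32 to 31.4, adjusted chi-square p = 0.00125 over the same comparisons).

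Beyond 100 kb lay 19.7% of lincRNA tags in Input and 18.4% in H3K27me3-RADIP, 14.7% and 19.1% of antisense tags, and 9.60% and 11.7% of processed transcripts. TEC models had no tag beyond 100 kb in Input and 27 of 528 in H3K27me3-RADIP. These belonged to *Gm45205* with 11, *Gm37899* with 8 and *Gm43668* with 8, and for each of these 3 the far tags lay in a single bin that Input did not list. The *Gm45205* bin lay 228 kb away and held the starts of *Armc5* and *Tgfb1i1*. Among the other bins outside these genes, *Gm43668* went from 8 to 0 tags at 20.7 kb and had 9 and 9 in the bin with the start of *Sox2ot*. *Gm45205* went from 30 to 17 at 3.40 kb and had 9 and 8 at 53.4 kb, and *Gm37899* went from 15 to 8 at 22.4 kb. *Gm37899* and its neighbour *B830012L14Rik* both met the bin with the start of *Mirg*, *Gm37899* with 0 and 12 exonic tags and *B830012L14Rik* with 9 and 12. *6720427I07Rik*, chosen after its values were seen, met the bin with the start of *Barx1*, a homeobox gene, with 0 exonic tags in Input and 9 in H3K27me3-RADIP. A bin appears in a table only once it is significant, and the bins with a member held at least 7 lncRNA tags of the same RNA, so a bin with too few tags is not listed at all. Of the 515 combinations with an exonic tag in H3K27me3-RADIP and none in Input, 130 were listed in Input through other tags of the RNA and 385 were not. Of the 394 with an exonic tag in Input alone, 146 were listed in H3K27me3-RADIP and 248 were not. For the bins with 0 Input tags named above, of *Firre*, *Lncpint*, *6720427I07Rik* and the 3 TEC models, Input listed no tag of the RNA of any kind. There a 0 means that the bin was not listed and not that no contact was read. H3K27me3-RADIP likewise listed no *Gm43668* tag in the bin at 20.7 kb, so its 0 there has the same meaning.

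The members fell into 754 combinations of an RNA and a 25-kb bin in Input and 875 in H3K27me3-RADIP, and 360 were found in both, which is 47.7% of the first set and 41.1% of the second. Over all pairs of the tables, 75.8% and 66.1% of such combinations were shared, over all lncRNAs beyond the 6 with tags of any kind 62.7% and 52.1%, and over the exonic tags of every RNA class 46% and 43.2%. These shared combinations held 62.4% of the Input tags and 56.6% of the H3K27me3-RADIP tags. A combination held a median of 2 exonic tags and of 11 lncRNA tags in each library. Most RNAs (313 of the Input and 397 of the H3K27me3-RADIP RNAs) met a single bin. The DNA tag lay inside the gene of the RNA for 44.1% and 43.5% of the tags, a difference of -0.583 points (chi-square p = 0.655). In *trans* there was 1 tag, in Input, and none was listed in H3K27me3-RADIP (Fisher's exact p = 0.489). It joined *Gm47283*, placed on the Y chromosome, to chromosome 9, and its 24-base run occurs at 2 places in the genome. M21 calls *Gm47283* protein-coding, and 18 Input pairs and 11 H3K27me3-RADIP pairs carry that name.

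Exons were the smaller part of these genes and gave the smaller part of their tags. Over the 1193 lncRNAs beyond the 6 with an exonic or intronic tag in either library and an intron in M21, Input held 0.735 tags per kb of exon and 0.361 per kb of intron, a ratio of 2.03. In H3K27me3-RADIP the values were 0.793 and 0.419, a ratio of 1.89. Over the 588 member RNAs with an intron, chosen by their exonic tags, the ratios were 1.67 and 1.57. Exonic tags were 12.1% and 11.1% of the lncRNA tags of the member RNAs, each of which has an exonic tag by the rule. Of the 50 RNAs with at least 20 tags, 19 had no intronic tag in either library, and 17 of these have no intron in M21.

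The number of tags per RNA was then compared between the libraries. Of the 50 RNAs with at least 20 tags, 2 were at least 2-fold higher per pair in H3K27me3-RADIP and 6 were at least 2-fold lower. Over all 8384 RNA names of any class with at least 20 pairs, 8.22% were 2-fold higher and 11.3% were 2-fold lower. Over the 6741 with no more pairs than the most frequent member, the shares were 10.1% and 13.9%. The members' shares, 4% higher and 12% lower, count exonic tags only. With exonic and intronic tags together, a count added after seeing the data, 48 of 312 member RNAs were 2-fold higher and 39 were 2-fold lower. The median log2 fold of the 50 RNAs, from exonic tags only, was -0.10, and 32 of the 50 lay within 1.5-fold. It was -0.07 over the 8384 RNA names and -0.11 over the 6741.

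**Figure D4:**
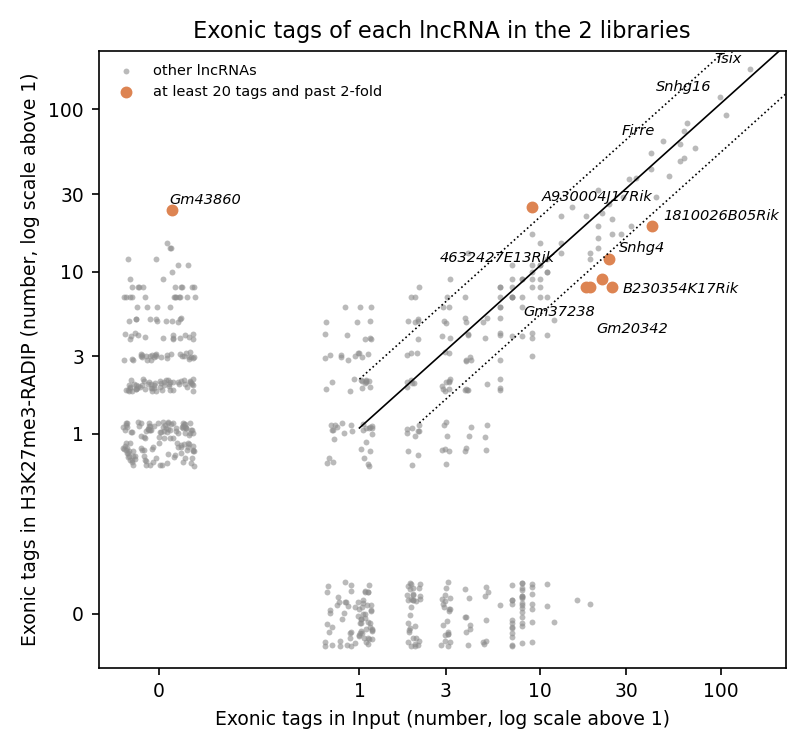
Exonic tags of each of the 669 lncRNAs in Input (horizontal axis) and in H3K27me3-RADIP (vertical axis), on axes that are logarithmic above 1, with points at low counts shifted at random to show overlaps. The solid line marks equal shares of all pairs and the dotted lines 2-fold, and the 8 RNAs in orange had at least 20 tags and lay past 2-fold.

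*A930004J17Rik* gave 9 tags in Input and 25 in H3K27me3-RADIP, a 2.56-fold rise (log2 1.36, 95% exact interval 0.21 to 2.64). At a q-value limit of 0.01 it gave 9 and 17 (log2 0.81), short of 2-fold. All of its tags lie inside *Srsf4*, a splicing factor gene on the same strand, which itself was named in 75 Input pairs and 71 H3K27me3-RADIP pairs. *Gm43860*, with 24 tags in H3K27me3-RADIP and no listed tag in Input, was the other RNA counted as higher, and no fold is given for it. The RNAs counted as lower were *B230354K17Rik* (25 to 8, log2 -1.76, -3.12 to -0.57), *4632427E13Rik* (22 to 9, log2 -1.41), *Gm20342* (19 to 8, log2 -1.36), *Gm37238* (18 to 8, log2 -1.29), *1810026B05Rik* (42 to 19, log2 -1.26, -2.13 to -0.45) and *Snhg4* (24 to 12, log2 -1.12, -2.25 to -0.06). *B230354K17Rik* and *4632427E13Rik* are classed as lncRNAs of bidirectional promoters. Higher but short of 2-fold were *Gm53* (9 to 17), *Gm4673* (13 to 22), *5430416N02Rik* (15 to 25) and *Snhg1*, with log2 folds between 0.49 and 0.80 and intervals that held 0. At a q-value limit of 0.01 *5430416N02Rik* passed 2-fold, with 10 and 25 tags (log2 1.21). *Mir17hg*, the host of the miR-17-92 cluster, gave 19 and 12 tags (log2 -0.78), and *Sox2ot*, the transcript that overlaps *Sox2*, 21 and 19 (-0.26), again with 0 inside the intervals.

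Many RNAs appeared in a single library, most of them with few tags each. Of the 669 names, 222 were found in both libraries, 179 (26.8%) in Input alone and 268 (40.1%) in H3K27me3-RADIP alone. Over the names of every RNA class these shares were 11.8% and 15.8%, over their exonic tags alone 21.7% and 21.8%, and over all lncRNAs beyond the 6 with tags of any kind 21.9% and 33.7%. The RNAs of a single library held 21.7% of the tags in Input and 25.6% in H3K27me3-RADIP, with a median of 2 tags each. Of these names, 63 of the 179 and 76 of the 268 did have intronic tags in the other library. Their tags also lay closer to home. The share beyond 100 kb was 0.651% and 0.528%, against 14.7% and 19.1% for the tags of RNAs found in both. TEC models made up 31.9% and 24.4% of the single-library tags, against 16.5% and 15.6% of the others.

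The most frequent names listed in H3K27me3-RADIP alone were *Gm43860* (24 tags), *Gm45293* (15), *Dancr* (14), *Gm43737* (14), *Gm43051* (12) and *Gm42929* (12), and all but *Dancr* are TEC models. The tags of *Gm45293* lie inside *Fto*, those of *Gm43051* inside *Med13l* and those of *Gm42929* inside *Cnn3*. Listed in Input alone were *1110038B12Rik* (19), *Gm44187* (16), *Gm43457* (12), *Gm43890* (11) and *Gm48353* (11). *Gm44187* lies inside *Rab7*, *Gm43890* inside *Mthfd2* and *Gm48353* inside *Tet1*, which encodes a DNA demethylation enzyme. These host genes were in both tables, for example *Tet1* with 1302 Input pairs and 1395 H3K27me3-RADIP pairs, and *Fto* with 4539 and 6028. *Mthfd2*, the host of *Gm43890*, had 42 and 26.

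RNAs named for the gene on the opposite strand numbered 31, and 14 of them (45.2%) were listed in H3K27me3-RADIP alone against 4 (12.9%) in Input alone, beside the 40.1% and 26.8% of all members. They had few tags, 81 and 95 in all (log2 fold 0.11, -0.33 to 0.56). Among the neighbours of developmental genes, 8 names gave 24 tags in Input and 37 in H3K27me3-RADIP (log2 fold 0.51, -0.27 to 1.31). *Sox2ot* alone gave 21 and 19 of these. Of the 8 names, 4 (50%) were listed in H3K27me3-RADIP alone and 0 in Input alone, beside the shares of all members above. *Fendrr*, the lncRNA beside *Foxf1*, gave 1 and 4 exonic tags with 10 and 37 intronic tags. *Igf2os* had 0 and 5 exonic tags. Hosts of microRNAs, 5 names in all, gave 22 and 25 exonic tags against 53 and 117 intronic tags.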

How the data were processed

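Libraries were grouped by condition from the labels, and the deposited data hold 1 merged table per condition, so comparisons rest on pooled libraries. The authors split each read at the adaptor into its RNA and DNA parts, aligned both to mm10, annotated RNA tags with GENCODE genes, and modelled pairs per RNA and 25-kb bin against a background from *trans* reads. The submitters' processing notes name BWA 0.7.15-r1140, STAR 2.5.0a and CASAVA 1.8.2. The values in the deposited tables are p-values and q-values, and the authors kept pairs with a q-value up to 0.1, a limit that was checked (largest 0.0999 in Input and 0.100 in H3K27me3-RADIP). The tables give no counts, so their lines were counted. The p-value column was not used.

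Members were chosen by 2 annotation columns and 6 excluded names, and the members and the role lists were chosen with earlier results of these data known. RNAs were named if they were among the 10 with the most tags in a library, had the 5 largest or smallest folds among RNAs with at least 20 tags, were among the 5 most frequent in a single library, had the 5 longest medians or the 3 most *trans* tags, or belonged to a role list with at least 20 tags. Other RNAs were named after their values were seen. Tag starts may be counted from 0 or from 1, so sequences are the 24 bases that both readings share, and centres were set at the start plus 12. Sequences came from the GRCm38.p6 genome of RefSeq, and exons from GENCODE M21, an older release than M25 named by the study (all 669 gene identifiers matched, 655 of them with version).

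Differences of shares were tested by 2-sided chi-square tests on tags with Newcombe intervals, folds by an exact interval of the split per pair, and medians by order statistics, at 95% confidence. For the 2-fold count, an RNA with no listed tag was set to 3 tags. With 1305107 and 1415135 pairs, 3 pairs are 0.000230% and 0.000212%. Amplified copies cannot be told from separate molecules, and tags of 1 RNA are not independent. Intervals therefore cover only the counting error of tags taken as independent. The calculations were tested on simulated data. Python 3.11.15, numpy 2.4.6, pandas 2.3.3, scipy 1.17.1 and matplotlib 3.10.9 were used. The alternatives were a q-value limit of 0.01, repeated positions counted once, other denominators and fold limits, leading RNAs left out, and RNAs or bins of both libraries only. Unfiltered pairs were not analysed here.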

Additional observations from a re-analysis of the deposited data

How the results depend on the processing

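No paired analysis was possible because the replicates were merged into 1 table per condition. Of the 68 alternatives for the main results, 47 were counted as unchanged, and none turned a called direction. For tested differences, unchanged meant the same side of the p-value threshold. For medians and for shares or ratios without a test it meant a value inside the main interval. For counts it meant a change of at most 1.5-fold. The difference in the share of all pairs was -0.0147 points (chi-square p = 0.00262) over RNAs found in both libraries, -0.0174 points (chi-square p = 5.53e-05) over RNA and bin combinations found in both, and -1.46 points when taken as a share of all lncRNA tags, a denominator that holds the 6 RNAs left out. As a share of the tags of lncRNAs beyond the 6, a denominator added after seeing the data, it was -0.863 points (9.43% and 8.56%). The difference beyond 100 kb fell to 1.06 points over shared combinations, and that within 25 kb to -1.11 points there and -2.27 points without *Tsix*. Without *Firre* or *Snhg16*, choices made after seeing the data, the difference beyond 100 kb was 2.04 points (chi-square p = 0.0186) and 2.11 points (chi-square p = 0.0180). Without *Tsix* the medians of the distance were 6.33 kb (Input) and 6.46 kb (H3K27me3-RADIP), and they were 9.01 and 13.03 kb over RNAs found in both. Of the H3K27me3-RADIP RNAs with at least 10 tags, 73.7% also had 10 in Input, against 45.3% at any count. RNAs past 2-fold numbered 1 higher with repeated positions counted once, 0 higher and 1 lower of 21 at 50 tags or more, and 48 higher and 39 lower of 312 when intronic tags were added, a choice made after seeing the data. Past 1.5-fold there were 5 higher and 13 lower. At a q-value limit of 0.01 the 10 leading RNAs held 33.1% and 33.2%. Of 84 alternative folds of 28 named RNAs, 80 stayed within the main interval. The other 4, all at a q-value limit of 0.01, were *Snhg15*, whose fold turned (12 and 17 tags, log2 0.39 against -0.67), *Gm37899* (52 and 23, log2 -1.29 against -0.53), *Gm20342* (19 and 0) and *Gm37238* (18 and 0). Within the interval, the signs of *Gnasas1* (log2 -0.27 against 0.28) and *Snhg17* (log2 -0.04 against 0.12) turned at that limit. Leaving out *Pvt1* and counting density over all lncRNAs were also chosen after seeing the data. The background restricted to RNAs with no more pairs than the members was also added after seeing the data. At 20 tags per RNA only large folds can be told from counting error, and unlisted bins hide contacts below significance.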
